A study of Mus musculus with 10 samples.

Results

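Pygo2 SSKO basal mammary cells were compared with control basal mammary cells across all genes, on 7 of the series' 10 arrays. The comparison used the 3 arrays of SSKO basal cells and the 4 arrays of control basal cells, which the labels call mammary stem cells in their titles. Cells came from virgin females aged 8 to 12 weeks, with control and Pygo2 SSKO littermates kept in 1 cage. After collagenase digestion, cells carrying the lineage markers CD31, CD45 or TER119 were gated out and the basal cells were taken as CD29-high CD24+. The other 3 arrays hold control luminal cells (CD29-low CD24+ CD61-). They are outside the comparison, but they enter the filter on dim probe sets and the spread that the fit pools. The series title calls the line Pygo2-null; the labels do not spell out SSKO, name a Cre driver or say how many mice went into a sample. The p-values below therefore measure the spread between these samples, which may be partly technical.

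Pygo2 is a PHD-finger protein that binds methylated lysine 4 of histone H3 and, through the adaptors Bcl9 and Bcl9l, joins beta-catenin at genes bound by TCF and LEF factors. Basal cells form the outer, contractile layer of the mammary duct and carry keratins 5 and 14, smooth muscle actin and p63. The inner luminal layer carries keratins 8, 18 and 19, and its hormone-sensing cells carry the estrogen receptor, the progesterone receptor, Foxa1 and Cited1. Pygo2 has been studied in mammary basal cells as a chromatin factor that bears on the choice between the basal and the luminal fate.

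The measurement is an array intensity per probe set. All levels below are log2(intensity + 16), and all differences are SSKO minus control means on that log2 scale. Because of the added 16, changes of dim genes are understated. After the dimmest 25% of probe sets were dropped, 15815 genes were tested, each through 1 probe set that names 1 gene. The basal label was checked on 8 basal markers. Their summed intensity was 65124 to 70370 in controls and 64864 to 69991 in SSKO arrays, against 1992 to 13832 in luminal arrays. The median difference of these 8 markers between SSKO and control cells was -0.02. Only Acta2, smooth muscle actin, had non-overlapping groups, by a gap of 0.03 at a difference of 0.07, which became -0.0070 after quantile normalization.

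Some arrays stand apart, and this touches many results below. The summed intensity of 8 endothelial markers reached 15612 in SSKO array 1, 9036 in SSKO array 3 and 8334 in control array 1. It was between 1975 and 3391 in each remaining basal array. Control array 4 had a summed intensity of 66570 over 11 measured genes of cornified epidermis, against at most 3276 in every other basal array. In bulk samples such as these, more cells of a type and more RNA per cell cannot be told apart.

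Most genes differed little between the groups. The median difference over all 15815 genes was 0.01, the median size of a difference was 0.10, and 97.6% of genes differed by less than 0.5. The 99th percentile of the size was 0.72. A difference of at least 0.5 was measured for 262 genes upward and 123 downward, and one of at least 1 for 46 upward and 13 downward. The fit with limma (Benjamini-Hochberg adjusted p under 0.05) called 6 genes, 0.0379% of those tested, of which 5 rose (0.0316%) and 1 fell (0.00632%). At an unadjusted p under 0.05 the same fit gave 479 genes.

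Because the adjusted test calls so few genes, separation of the arrays themselves was used as a second, purely descriptive measure. A gene was counted as non-overlapping when all 3 SSKO arrays lay above, or all 3 below, all 4 control arrays. This held for 706 genes, 4.46% of those tested, with 387 higher (2.45%) and 319 lower (2.02%) in SSKO cells. Groups of 3 and 4 arrays also separate in some genes by chance alone. The count was not tested against that share, so by itself it does not show an effect of the genotype. The split by direction depends on the scaling. It was 237 higher and 570 lower when each array was centred on its median, and 300 higher and 417 lower after quantile normalization, while those scalings moved the median of all genes to -0.04 and -0.02. Most of these separations were small, with a median difference of 0.28 among the higher and -0.25 among the lower genes. An empty gap of at least 0.5 between the nearest arrays of the groups was left by 14 higher and 3 lower genes, and a gap of at least 1 by 5 higher and 1 lower gene.

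A large difference did not guarantee separation. Of the 59 genes with a difference of at least 1 (0.373% of genes), 18 were non-overlapping (0.114% of genes), 15 higher and 3 lower. The other 41, 31 higher and 10 lower, had overlapping groups and are described after them. Non-overlap was not concentrated in the brightest genes: it held for 4.78% of the dimmest 25% of the genes tested and for 3.54% of the brightest 25%.

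**Figure D1:**
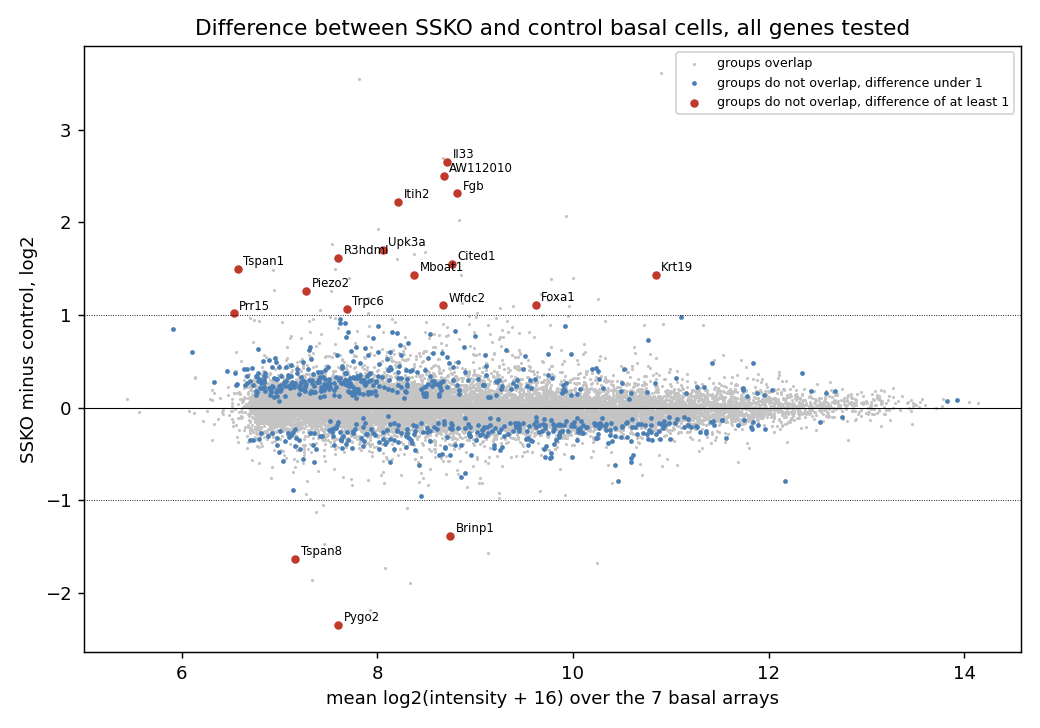
Difference in mean log2(intensity + 16), SSKO minus control basal cells (vertical axis), against the mean log2 level over the 7 basal arrays (horizontal axis), 1 point per gene for 15815 genes, with non-overlapping genes in blue, or in red where the difference is at least 1. Most points lie within 0.5 of 0, the non-overlapping genes Il33, AW112010, Fgb and Itih2 lie above 2, and Glycam1 and Msr1 (unlabelled grey points above 3) lie higher still although their groups overlap.

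Pygo2, the targeted gene, fell by 2.34 (SE 0.32, adjusted p 0.0441). Its control levels were 8.30, 9.09, 8.11 and 8.91, and its SSKO levels were 6.99, 5.94 and 5.86. The highest SSKO array lay 1.12 below the lowest control array, and SSKO array 1 kept the most signal. The sources used here do not say whether the probe set matches deleted sequence. When the 3 arrays brightest for endothelial markers (control array 1, SSKO arrays 1 and 3) were left out, the difference was -2.76. Here and wherever these 3 arrays are left out below, SSKO array 2 is the only SSKO array that remains. Such values therefore cannot separate the endothelial signal from other traits of that array.

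Of the genes that rose, 2 encode proteins known mainly from plasma. Itih2 encodes an inter-alpha-trypsin inhibitor heavy chain, which becomes attached to hyaluronan in the extracellular matrix. It rose by 2.22 (SE 0.20, adjusted p 0.00431). Its levels were 7.23, 7.01, 7.39 and 7.42 in controls and 9.50, 8.99 and 9.95 in SSKO arrays, a gap of 1.57. Fgb, the beta chain of fibrinogen, rose by 2.31 (SE 0.32, adjusted p 0.0443). It measured 7.48, 7.58, 7.52 and 8.71 in controls and 10.57, 9.62 and 10.22 in SSKO arrays. In both genes the groups were well apart, and the mean luminal levels, 11.36 for Itih2 and 12.70 for Fgb, were above all SSKO arrays.

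The rest of this gene group showed smaller differences. Among the 8 measured members of the fibrinogen and inter-alpha-trypsin inhibitor list, 7 had a difference above 0 and only Fgb and Itih2 were non-overlapping, with a list median of 0.17. The fibrinogen gamma chain gene Fgg had a difference of -0.54, with levels of 10.35, 10.71, 10.22 and 10.40 in controls and 10.25, 9.97 and 9.43 in SSKO arrays. Itih1, Itih3, Itih4 and Itih5 had differences of 0.10, 0.22, 0.11 and 0.29, and Ambp, which encodes the precursor of the light chain bikunin, one of 0.08. Fga, the alpha chain gene, was dropped as dim.

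AW112010, a transcript known to be induced by interferon and by inflammatory stimuli, rose by 2.51 (SE 0.24, adjusted p 0.00447). Its levels were 8.18, 7.02, 7.47 and 7.74 in controls and 10.17, 9.81 and 10.35 in SSKO arrays, with the widest gap of any non-overlapping gene, 1.63. The difference was as large, 2.40, without the 3 arrays brightest for endothelial markers. The interferon-induced genes as a family did not separate: of 36 measured, 31 had a difference above 0, none was non-overlapping, and the median was 0.17.

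Cited1, a transcriptional co-regulator of hormone-sensing luminal cells, rose by 1.56 (SE 0.18, adjusted p 0.0103). It measured 8.25, 7.97, 7.96 and 8.22 in controls and 9.97, 9.43 and 9.56 in SSKO arrays. Tspan1, a tetraspanin of epithelial cell membranes, rose by 1.50 (SE 0.17, adjusted p 0.0103), from 6.11, 5.81, 5.79 and 6.02 in controls to 7.22, 7.29 and 7.78 in SSKO arrays. Control arrays of both genes were tightly grouped, and every SSKO array lay at least 1.12 above them.

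These calls differ in how far they rest on single arrays. Itih2 kept its call whichever 1 array was left out. With control array 1 and SSKO arrays 1 and 3 left out its difference was 1.72, but this rests on SSKO array 2 alone. With 1 SSKO array left, only the total of calls is given for that setting, at the end. AW112010 lost the call without SSKO array 3 (limma adjusted p 0.0535). Cited1 and Tspan1 lost it without control array 2 (limma adjusted p 0.0564 for both) and without SSKO array 3 (0.0662 for both). Fgb lost it without control array 1, 2 or 3 or SSKO array 1 or 3 (adjusted p 0.152 to 0.363), and Pygo2 without control array 1, 2 or 4 or SSKO array 2 or 3 (0.0614 to 0.363). Quantile normalization ended the calls of Fgb, Pygo2 and Tspan1 (adjusted p 0.0579, 0.0735 and 0.0555), as did the endothelial marker level as a covariate in the limma fit (0.127, 0.0801 and 0.0509). The call of Fgb also ended with centred arrays (0.0698) and with array weights (0.0813).

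The start regions of the genes above were searched for 4 short motifs on both strands, in windows from 250 bases before to 50 bases after each RefSeq start (build GRCm38.p6). CTTTGA is the core bound by TCF and LEF factors, TGTTTAC the forkhead core, CACCTG an E-box and TATAAA the TATA box. Over 32851 such windows, CTTTGA occurred in 16%, TGTTTAC in 3.65%, CACCTG in 20.2% and TATAAA in 13.6%. No window of the 6 called genes held CTTTGA. The windows of AW112010, Fgb and Itih2 held none of the 4 motifs. The sequences that follow are the first of 3 Cited1 windows, with TATAAA from position -13, the Tspan1 window, with CACCTG from -24 and again from -15, and the Itih2 window as one without a match. The fourth is that of Tspan8, a gene of lower level in SSKO cells described further on, with CTTTGA from position 5 and TGTTTAC from -18. Positions count from the start site, and capitals mark the motifs. A match is only a description of these letters. The windows lie at chrX:102252132-102252431 (Cited1, minus strand), chr4:116167549-116167848 (Tspan1, minus strand), chr2:10130634-10130933 (Itih2, minus strand) and chr10:115817034-115817333 (Tspan8, plus strand).
Cited1: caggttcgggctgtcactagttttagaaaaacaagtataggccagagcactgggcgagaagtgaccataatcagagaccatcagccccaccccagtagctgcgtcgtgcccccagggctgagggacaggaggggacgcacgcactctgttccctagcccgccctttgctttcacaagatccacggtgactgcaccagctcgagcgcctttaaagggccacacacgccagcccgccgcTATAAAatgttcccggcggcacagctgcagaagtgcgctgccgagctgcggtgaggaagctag
Tspan1: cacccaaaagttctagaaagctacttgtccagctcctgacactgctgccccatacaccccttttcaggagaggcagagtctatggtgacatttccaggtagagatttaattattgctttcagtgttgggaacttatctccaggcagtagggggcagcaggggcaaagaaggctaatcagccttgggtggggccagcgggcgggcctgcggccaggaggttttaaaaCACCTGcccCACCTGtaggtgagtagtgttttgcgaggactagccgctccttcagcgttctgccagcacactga
Itih2: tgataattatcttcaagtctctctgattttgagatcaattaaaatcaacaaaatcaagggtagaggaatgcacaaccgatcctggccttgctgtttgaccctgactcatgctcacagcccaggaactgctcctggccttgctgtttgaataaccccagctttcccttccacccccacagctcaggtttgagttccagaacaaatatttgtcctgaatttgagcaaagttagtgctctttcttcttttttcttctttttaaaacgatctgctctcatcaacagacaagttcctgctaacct
Tspan8: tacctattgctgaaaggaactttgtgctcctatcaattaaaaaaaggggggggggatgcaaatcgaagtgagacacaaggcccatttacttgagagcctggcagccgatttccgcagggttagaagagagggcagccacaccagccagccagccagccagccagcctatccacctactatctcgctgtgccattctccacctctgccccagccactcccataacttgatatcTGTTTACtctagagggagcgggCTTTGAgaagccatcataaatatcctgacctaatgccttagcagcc

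Beyond the called genes, 10 more had non-overlapping groups and a difference of at least 1 upward, none of them called. Several are genes of luminal epithelium. Krt19, the keratin of luminal cells, measured 9.87, 10.06, 10.28 and 10.71 in controls and 11.49, 11.35 and 12.15 in SSKO arrays, a difference of 1.44 (SE 0.22, adjusted p 0.0934). Foxa1, the forkhead factor needed for estrogen receptor binding to chromatin, measured 8.87, 9.16, 9.44 and 9.09 in controls and 10.64, 9.89 and 10.23 in SSKO arrays, a difference of 1.11 (SE 0.18, adjusted p 0.105). Wfdc2, a secreted protein with whey acidic protein domains, measured 8.15, 8.55, 7.91 and 8.19 against 9.48, 9.13 and 9.30, a difference of 1.11 (SE 0.18). Luminal levels of all 3 genes were above the SSKO arrays, with means of 13.80 for Krt19, 14.49 for Foxa1 and 12.48 for Wfdc2.

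The ion channels Trpc6 and Piezo2 were among them. Trpc6, a calcium-permeable channel opened by diacylglycerol, measured 7.15, 7.35, 7.34 and 7.09 in controls and 8.33, 8.004 and 8.56 in SSKO arrays, a difference of 1.07 (SE 0.17, adjusted p 0.0934). Piezo2, a mechanically gated channel, measured 6.86, 6.48, 6.84 and 6.76 in controls and 8.06, 7.19 and 8.73 in SSKO arrays, a difference of 1.26 (SE 0.28). SSKO array 2 was the lowest of its group in both. All 3 probe sets of Piezo2 pointed upward, with differences of 1.26, 0.90 and 1.14.

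Upk3a, a uroplakin of the urothelial membrane plaque, gave one of the clearest separations although it was not called. Its levels were 7.23, 7.59, 7.04 and 7.43 in controls and 9.09, 8.89 and 9.10 in SSKO arrays, a difference of 1.70 (SE 0.38, adjusted p 0.627) and a gap of 1.30. The luminal arrays of Upk3a were widely spread, at 9.05, 10.39 and 8.22, and the fit pools that spread. With the 7 basal arrays alone its adjusted p was 0.0193, while that fit ended the calls of Fgb (0.133) and Pygo2 (0.118).

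Il33, an interleukin-1 family cytokine released from damaged cells, had the largest difference of any non-overlapping gene, 2.65 (SE 0.53, adjusted p 0.334). Its arrays were widely scattered, at 7.83, 7.11, 7.02 and 8.36 in controls and 10.20, 8.9995 and 11.50 in SSKO arrays. SSKO arrays 1 and 3 were highest, as they were for endothelial markers. The difference was 1.50 without those arrays and control array 1.

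The last 3 of the 15 higher genes were R3hdml, Mboat1 and Prr15. R3hdml, which encodes a secreted protein of the CAP family, measured 6.99, 6.997, 6.59 and 7.06 in controls and 8.87, 7.99 and 8.71 in SSKO arrays, a difference of 1.62 (SE 0.23, adjusted p 0.0551). Mboat1, a lysophospholipid acyltransferase, measured 7.25, 7.22, 8.06 and 8.53 against 9.34, 8.68 and 9.57, a difference of 1.44 (SE 0.32) with a gap of only 0.15. Prr15, a proline-rich protein, measured 6.33, 6.05, 5.75 and 6.25 against 6.69, 6.70 and 7.95, so its difference of 1.02 (SE 0.30) rested mostly on SSKO array 3.

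Across these 15 genes the SSKO arrays were not interchangeable. SSKO array 2 was the lowest of its group in 13 and SSKO array 3 the highest in 10. All luminal arrays lay above all SSKO arrays in 12 of the 15, the exceptions being Il33, Upk3a and Prr15. The filter on dim probe sets used the mean over all 10 arrays, so luminal signal helped dim basal genes to pass. Tspan1, for example, had a control mean of 5.93 and a luminal mean of 11.30, against a filter of 6.74. Without that filter the number of higher genes of this kind was also 15. Over all 387 non-overlapping higher genes, all luminal arrays lay above all controls in 168 and below them in 40. Among the 319 lower genes this held for 74 and 147, and among all genes for 25.8% and 20.5%. When the 3 arrays brightest for endothelial markers were left out, Piezo2 had a difference of 0.50, Mboat1 one of 0.75 and Foxa1 one of 0.66. Those values rest on SSKO array 2 alone. Without SSKO array 2, limma called R3hdml, Piezo2, Foxa1, Il33, Trpc6 and Krt19 as well (adjusted p 0.00698 to 0.0427).

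**Figure D2:**
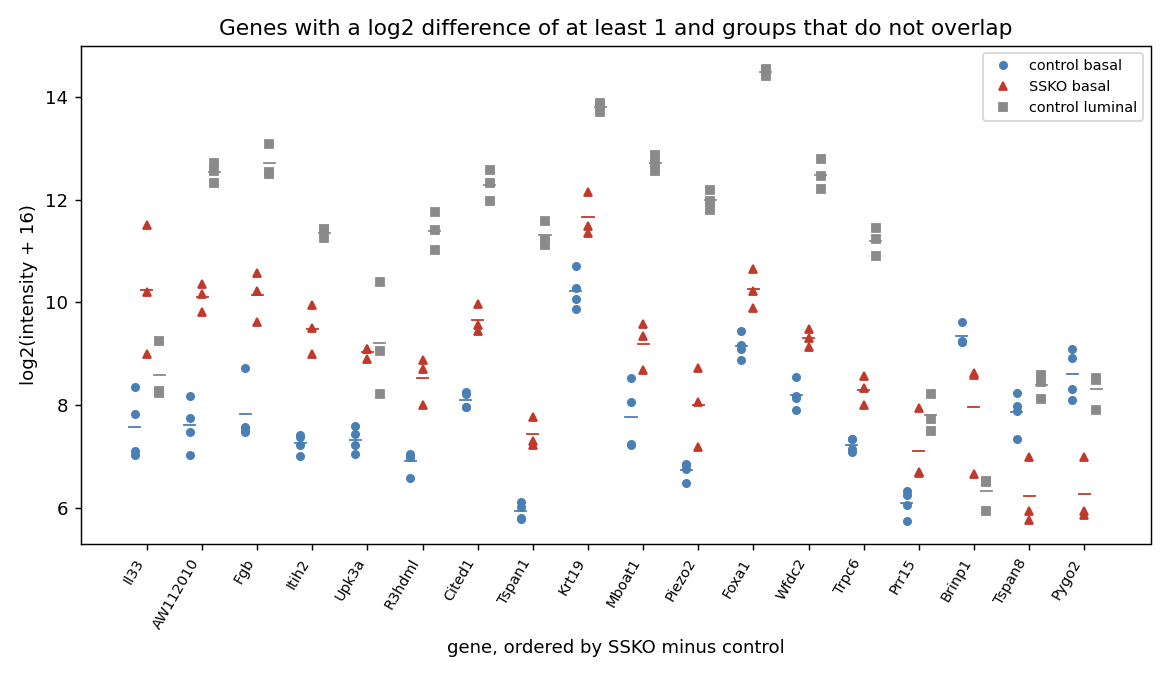
Log2(intensity + 16) on each array for the 18 genes with non-overlapping groups and a difference of at least 1, with control basal (blue circles), SSKO basal (red triangles) and luminal arrays (grey squares) and a short line at each group mean. In every gene all 3 SSKO points lie on 1 side of the 4 control points, widest for AW112010 (gap 1.63) and narrowest for Mboat1 (gap 0.15).

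Apart from Pygo2, only Tspan8 and Brinp1 were non-overlapping with a difference of at least 1 downward. Tspan8, a tetraspanin of epithelial and stem-like cells, measured 8.23, 7.98, 7.34 and 7.89 in controls and 6.99, 5.77 and 5.93 in SSKO arrays, a difference of -1.63 (SE 0.29, adjusted p 0.181). SSKO array 1 was the closest to controls, and without it limma gave an adjusted p of 0.0243. Brinp1, a protein that restrains cell cycle entry in neurons, measured 9.62, 9.24, 9.26 and 9.23 in controls and 8.63, 8.58 and 6.66 in SSKO arrays, a difference of -1.38 (SE 0.40). Its size rested on SSKO array 3, and with the 3 arrays brightest for endothelial markers left out it was -0.66. The luminal mean of Tspan8 was 8.38, above its control mean of 7.86. That of Brinp1 was 6.33, below its control mean of 9.34.

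The other lower genes were smaller in size, and none was called. Car8, a carbonic anhydrase relative without enzyme activity, measured 9.39, 9.17, 9.16 and 8.99 in controls and 8.52, 8.27 and 8.49 in SSKO arrays, a difference of -0.75 (SE 0.14, adjusted p 0.25). Col14a1, a fibril-associated collagen, measured 12.36, 12.67, 12.58 and 12.40 against 11.63, 11.77 and 11.75, a difference of -0.79 (SE 0.31). In both genes each group was tight and the groups were clearly apart.

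Pcdh18, a protocadherin of the delta class, had a difference of -0.62 (SE 0.16), from 10.86, 10.59, 10.92 and 10.42 in controls to 10.10, 10.11 and 10.02 in SSKO arrays. Csn3, the kappa-casein gene of milk, had one of -0.79 (SE 0.23), from 11.23, 10.87, 10.67 and 10.43 to 10.25, 9.47 and 10.32. Lrrtm1, a synaptic adhesion protein, had -0.88 (SE 0.22). Thsd7a had -0.71, Cryzl2 -0.62, Deptor, an inhibitor of mTOR, -0.59, Cfap54, a ciliary protein, -0.59, the cadherin Cdh10 -0.58 and the RNA-binding protein Rbm46 -0.58. Krt16, a keratin of stressed epidermis, had -0.95 (SE 0.73), but its controls were 8.10, 8.18, 8.06 and 11.09, so control array 4 set most of that value.

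The 41 large differences with overlapping groups fell mostly into patterns set by a few of the arrays. The genes named in these paragraphs were chosen after their values were seen. In 24 of the 31 higher genes, SSKO arrays 1 and 3 lay above all controls while SSKO array 2 did not. In 17 of those 24, control array 1 was the highest control, and in 19 all luminal arrays lay below SSKO arrays 1 and 3.

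Glycam1, a mucin of high endothelial venules and of the lactating gland, showed this pattern at the largest size of any gene, 3.61. It measured 14.16, 7.99, 7.56 and 7.70 in controls and 16.18, 7.45 and 15.25 in SSKO arrays. Lyve1, the hyaluronan receptor of lymphatic vessels, measured 10.40, 8.35, 8.75 and 8.67 in controls and 12.53, 7.98 and 12.84 in SSKO arrays, a difference of 2.07. In Glycam1 control array 1 stood with SSKO arrays 1 and 3, while in Lyve1 it lay between them and the other controls. SSKO array 2 stood with the other controls in both genes.

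Scavenger receptors and a lymphoid chemokine had the same order of SSKO arrays, but not all were high in control array 1. Msr1 measured 6.32, 6.58, 6.27 and 6.02 in controls and 11.14, 6.28 and 12.11 in SSKO arrays, a difference of 3.55. Marco measured 7.35, 7.44, 7.27 and 7.11 against 9.64, 7.27 and 10.01, a difference of 1.68. Cxcl13, a chemokine that attracts B cells, measured 10.24, 6.997, 5.82 and 7.03 against 11.86, 6.92 and 11.85, a difference of 2.69. For Msr1 and Marco the 4 controls and SSKO array 2 formed 1 low group.

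Further genes of lymphatic and sinusoidal endothelium shared the pattern, among them Prox1 (1.49), the defining transcription factor of lymphatic endothelium, and Flt4 (1.49), the receptor for vascular endothelial growth factor C. Stab2 (1.40) and Stab1 (1.18), scavenger receptors of sinusoids, and F8 (2.02), coagulation factor VIII, belonged there too. A list of lymphatic and sinus genes, added after these values were seen, had 9 of 11 members measured, a median difference of 1.49 and summed intensities of 19232, 10089 and 22688 in SSKO arrays 1, 2 and 3. Controls ranged from 8054 to 11007. The median of the list was -0.04 without control array 1 and SSKO arrays 1 and 3. None of the lymphatic genes named here was non-overlapping, and the part of other cells in them was not tested.

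Among the 10 lower genes with overlapping groups, casein genes and epidermal genes stood out. Csn1s1 measured 11.58, 9.14, 9.16 and 5.58 in controls and 8.54, 6.16 and 5.34 in SSKO arrays, a difference of -2.18, and Csn2 and Csn1s2a had -1.89 and -1.86. The control arrays of Csn1s1 were spread more widely than the groups differed. In 5 of the 10, control array 4 was the highest basal array. Krt6b, for example, measured 7.77, 8.20, 8.32 and 14.93 in controls and 7.84, 8.43 and 8.45 in SSKO arrays, so its difference of -1.56 came from that array alone. The added epidermal list had a median of -0.89 with all arrays and 0.15 without control array 4.

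**Figure D3:**
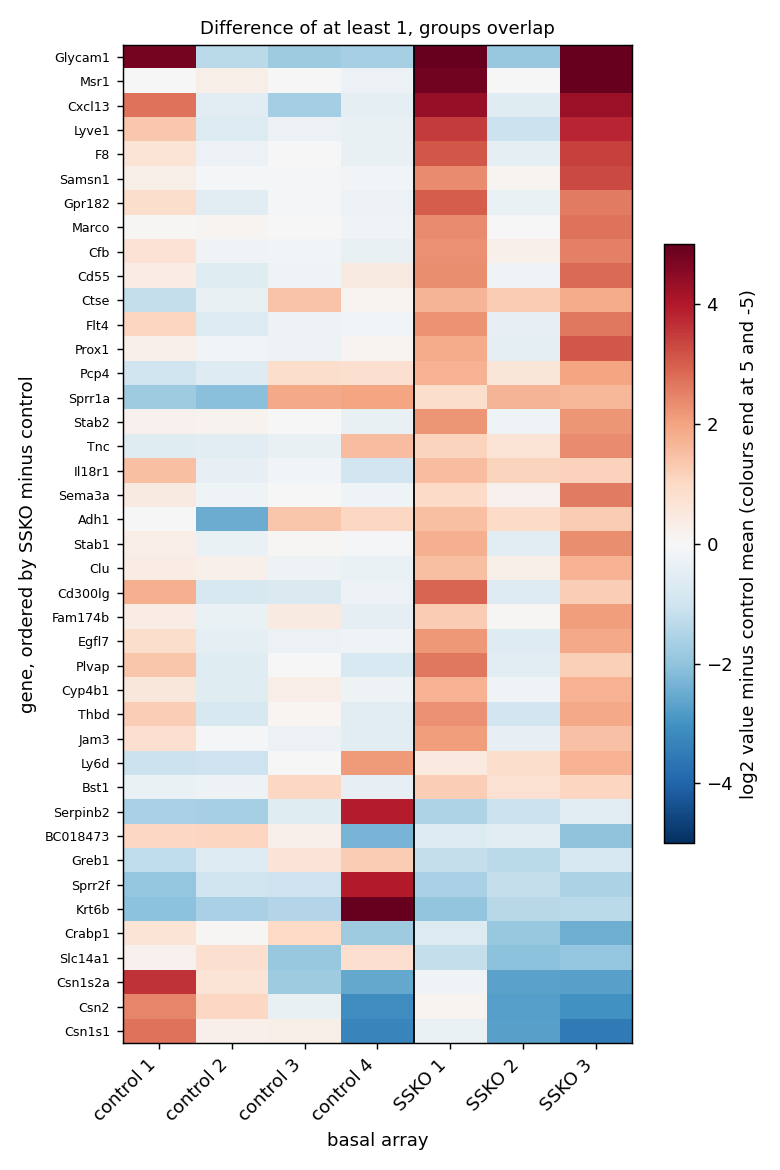
Log2 level on each of the 7 basal arrays relative to the gene's mean over control arrays (colour, saturating at 5 in either direction) for the 41 genes with a difference of at least 1 and overlapping groups. In 24 genes SSKO arrays 1 and 3 lie above all controls and SSKO array 2 does not, and control array 4 alone is high for epidermal genes such as Krt6b.

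Marker lists were then set side by side. Of 7 measured mature luminal markers, 6 had a difference above 0 and 3 were non-overlapping (Cited1, Krt19 and Foxa1), with a median of 0.39, or 0.15 without control array 1 and SSKO arrays 1 and 3. Their summed intensity was 12582 to 16780 in controls, 19301 to 22089 in SSKO arrays and 88431 to 90805 in luminal arrays, so the groups did not overlap. The other 4 did not separate: Krt18 had 0.39, Pgr, the progesterone receptor, 0.26, Krt8 0.10 and Esr1, the estrogen receptor, -0.34, all with overlapping groups. Esr1 measured 8.41, 9.42, 9.12 and 10.06 in controls and 8.82, 8.64 and 9.28 in SSKO arrays, which lay inside the control range.

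The 8 endothelial markers all had differences above 0 but none was non-overlapping, and their median was 0.74. Without control array 1 and SSKO arrays 1 and 3, left out for their level of these same markers, the median was -0.51 for SSKO array 2 alone. Fibroblast markers summed to 9709 to 19204 in controls and 9335 to 13009 in SSKO arrays, and pericyte markers to 1790 to 2810 and 1918 to 3137. Immune markers summed to 1286 to 2308 and 1621 to 2751, and adipocyte markers to 775 to 2226 and 796 to 3523. Erythroid and Schwann lists had 1 and 2 measured members with overlapping sums. The groups overlapped in each of these lists.

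**Figure D4:**
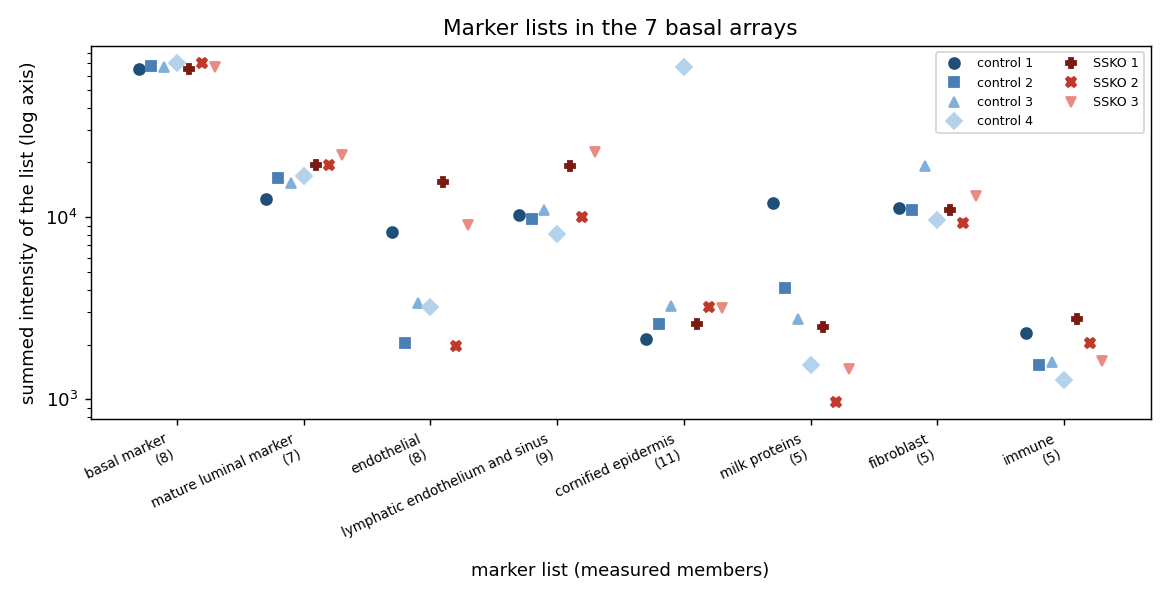
Summed linear intensity (log axis) of 8 marker lists on each of the 7 basal arrays, 1 symbol per array, with control arrays in blue and SSKO arrays in red and the number of measured members in parentheses. Basal markers are level across the 7 basal arrays, and the mature luminal sums of SSKO arrays (19301 to 22089) lie above those of controls (12582 to 16780). SSKO arrays 1 and 3 stand out in the lymphatic list. In the endothelial list they stand out together with control array 1 (8334, against 9036 in SSKO array 3).

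Gene families were described by the share of members above 0, the number of non-overlapping members and the median, beside 52.1% above 0, 4.46% non-overlapping and a median of 0.01 for all genes. Of 48 families, 35 had a median above 0. The dimmest 25% of all genes had a median difference of 0.05 and the brightest 25% one of -0.01.

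Claudins, the strand-forming proteins of tight junctions, had the highest median, 0.30, with 15 of 18 measured members above 0. The median was 0.28 after quantile normalization and 0.25 after centring. Non-overlapping were 4, all higher: Cldn4, Cldn3, Cldn7 and Cldn6. Cldn4 measured 9.80, 10.79, 11.00 and 11.16 in controls and 11.41, 11.72 and 11.88 in SSKO arrays, a difference of 0.98 (SE 0.27). Cldn3 measured 8.47, 8.41, 8.20 and 8.57 against 9.01, 8.83 and 9.16, and Cldn7 measured 8.39, 8.65, 7.89 and 8.31 against 9.01, 8.74 and 8.96, each a difference of 0.59. Cldn6 had one of 0.57. These 4 were brighter still in luminal arrays, at means of 13.44, 11.84, 12.28 and 12.29. None was called.

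Not every claudin had that pattern. Cldn5, the claudin of endothelial tight junctions, measured 10.38, 9.33, 9.04 and 9.37 in controls and 11.72, 8.56 and 11.29 in SSKO arrays, so its difference of 0.99 followed the arrays brightest for endothelial markers. Its luminal mean was 7.82. The mean over all measured claudins, each centred on its 7 basal arrays, was -0.26, -0.11, -0.03 and -0.22 in controls and 0.27, 0.05 and 0.29 in SSKO arrays, so the groups did not overlap.

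Protocadherins, homophilic adhesion proteins of the cadherin superfamily, had the lowest family median, -0.16, with 7 of 26 above 0 and 5 non-overlapping, all lower. Besides Pcdh18 these were clustered beta genes: Pcdhb2 (-0.40), Pcdhb18, Pcdhb8 (-0.23) and Pcdhb16 (-0.23). Pcdhb16 measured 7.75, 7.94, 7.93 and 7.86 in controls and 7.63, 7.57 and 7.72 in SSKO arrays, a separation of 0.03 between the nearest arrays. The beta genes are similar in sequence, and their probe sets may share signal. The median was -0.21 after quantile normalization and -0.20 after centring. With the lower 50% of probe sets dropped, 5 members were left, 3 of them above 0, with a median of 0.33. Pcdh17 and Pcdh1, chosen after their values were seen, had differences of 0.66 and 0.59 upward with overlapping groups.

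HOX genes, which set position along the body axis, had 28 of 29 members above 0 and a median of 0.17, with 3 non-overlapping and higher: Hoxb9 (0.28), Hoxa7 (0.23) and Hoxd4 (0.19). The count above 0 was 26 after quantile normalization and 25 after centring, with medians of 0.12 and 0.13. The differences ran from -0.08 to 0.46. The mean over the family, each gene centred on its 7 basal arrays, overlapped between groups, since control array 2 (0.05) lay above SSKO array 1 (0.03). Hoxd4 measured 6.96, 6.92, 6.91 and 6.91 in controls and 6.98, 7.11 and 7.24 in SSKO arrays, levels close to the filter for dim probe sets.

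Complex I genes of the mitochondrial respiratory chain, a group that here includes assembly factors, had 35 of 43 above 0 and a median of 0.17. Only Ndufb10 (0.40) and Ndufa3 (0.40) were non-overlapping, 4.65% of the family, near the 4.46% of all genes. Control array 1 was itself high for this family, so the array means of the groups overlapped. Histone genes had a median of 0.12 that became -0.08 without control array 2. SOX factors had 16 of 21 above 0 and a median of 0.15, with Sox2 (0.32) and Sox13 (0.27) non-overlapping. Major histocompatibility genes had 19 of 24 above 0 and a median of 0.16, with 2 non-overlapping higher and 1 lower.

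Tetraspanins had members in both directions: Tspan1 and Cd82 (0.42) were non-overlapping and higher, Tspan8 lower, and the median of 26 was 0.08. Keratins likewise had 5 members non-overlapping and higher and 1 lower among 43, with a median of 0.07. Carbonic anhydrases had 3 lower and none higher among 12, including Car8, with a median of -0.00. Single non-overlapping genes in other families were Mlph, the melanophilin that links Rab27 to myosin, at 0.68 (SE 0.11, adjusted p 0.105), the water channel Aqp5 at 0.78 and the potassium channel Kcna1 at 0.70. Among 70 potassium channel genes, 7 were non-overlapping higher and 1 lower.

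The largest families had shares above 0 near that of all genes. Solute carriers had 141 of 308 above 0, with 4 non-overlapping higher and 10 lower, and a median of -0.01. Zfp zinc finger genes had 135 of 281 above 0, with 3 higher and 9 lower, and a median of -0.01. Olfactory receptors, the odorant receptors of the nose, had 125 of 226 above 0, with 9 non-overlapping higher and 1 lower, and a median of 0.02. Collagens had a median of -0.02. Other families leaned to 1 side by small amounts: cytosolic ribosomal proteins had 53 of 63 above 0 (median 0.06), mitochondrial ribosomal proteins 58 of 77 (0.08), proteasome genes 43 of 50 (0.07) and kinesins, the microtubule motors, 10 of 35 (-0.10). The array means of the groups overlapped in all 4.

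**Figure D5:**
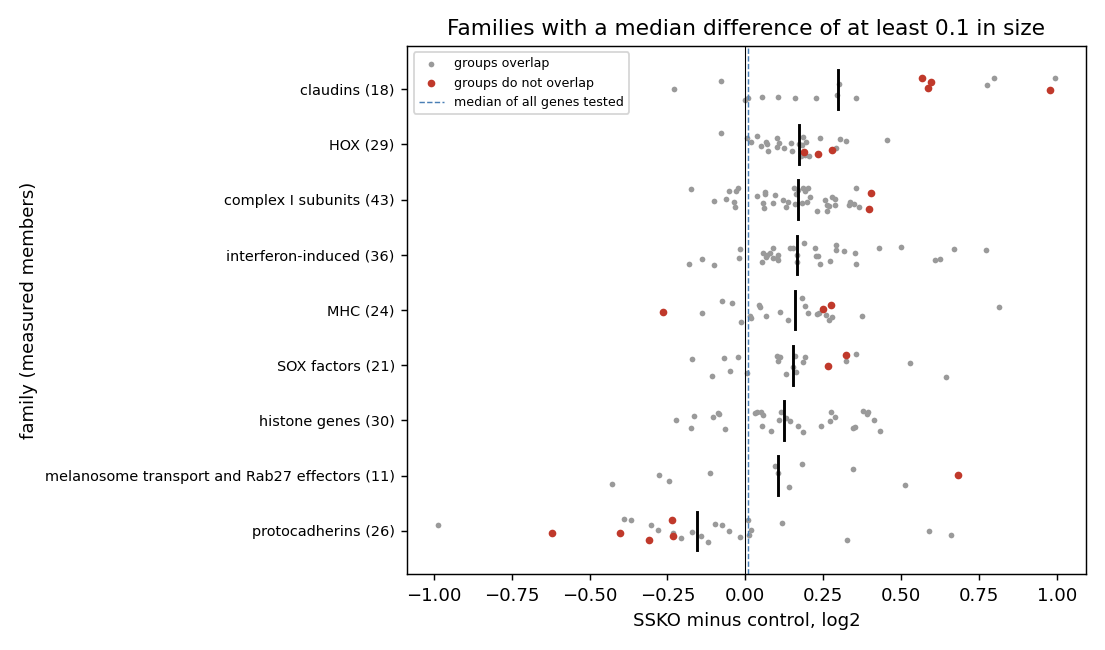
SSKO minus control log2 difference of each measured member (points) for the families with a median of at least 0.1 in size, with the family median as a black bar, non-overlapping members in red and the median of all genes (0.01) as a dashed line. The fibrinogen and inter-alpha-trypsin inhibitor list (median 0.17) is not shown, because it has only 8 measured members. Claudins sit furthest above 0 (median 0.30) and protocadherins are the 1 family below 0 (median -0.16).

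The partners of Pygo2 gave no such shift. Of 14 measured genes of the Wnt enhanceosome, the complex that joins beta-catenin to TCF-bound DNA, 7 had a difference above 0, the median was 0.01 and Pygo2 alone was non-overlapping. Its paralog Pygo1 had -0.05, the adaptors Bcl9 and Bcl9l -0.04 and 0.03, Ctnnb1, which encodes beta-catenin, -0.01, Lef1 0.11 and the chromatin remodeller Chd8 -0.19.

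A sweep over the first letters of gene symbols described families without a chosen list. Among 123 roots shared by at least 15 genes, medians ran from -0.19 to 0.30, and 65 lay above 0. Cldn was highest (0.30), followed by Clec (0.19, C-type lectins), Sox (0.15), Rgs (0.14, regulators of G protein signalling) and Fgf (0.13, fibroblast growth factors). Pcdhb was lowest (-0.19, with 2 of 16 above 0), followed by Kdm (-0.10), Kif (-0.10), Usp (-0.07) and Rbm (-0.07). Kdm genes encode histone lysine demethylases, and 3 of 17 had a difference above 0. Kdm5a, a demethylase of lysine 4 of histone H3, the residue whose methylated form Pygo2 binds, was the only non-overlapping one, with a difference of -0.35. It makes up 5.88% of the Kdm genes, against 4.46% non-overlapping among all genes. Usp24 (-0.29) and Usp48 (-0.19), both deubiquitinases, were the non-overlapping Usp genes, 4.26% of 47 and so near the share of all genes.

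Genes next to Pygo2 on chromosome 3 were read for any effect of the allele on its surroundings. Of its 10 nearest genes, 6 were measured, and none was called or non-overlapping. Pbxip1 had the largest difference, -0.34 (SE 0.14), and Cks1b, a subunit of cyclin-dependent kinases, had -0.09 (SE 0.18). Shc1, a signalling adaptor, had 0.02, Adar, an RNA-editing enzyme, 0.04, Pmvk, an enzyme of the mevalonate pathway, -0.16 and Kcnn3, a calcium-activated potassium channel, -0.17.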

How the data were processed

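Total RNA of sorted mouse mammary cells was measured on 10 Affymetrix arrays, 1 per sample. The deposited values are intensities on a linear scale, 1 per probe set and array. Affymetrix Expression Console 1.1 and PLIER 2.0 are named in the submitters' processing notes, without their roles. The sources used here do not state any normalization between arrays. Intensities of the 28815 probe sets ran from 0.000261 to 81263.63, with array medians of 205 to 228, and the number of arrays limits the precision.

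Gene names came from the platform annotation: 21780 probe sets had 1 symbol, 1605 several and 5430 none. Of the first, 21689 matched the RefSeq gene table (GRCm38.p6 for promoters) and 91 kept the annotation's symbol. From log2(intensity + 16), the dimmest 25% of probe sets (mean over all 10 arrays under 6.74) were dropped, and the brightest probe set stood for each gene. A model with 3 group means over 10 arrays, with 7 residual degrees of freedom, was fitted with limma 3.58.1 in R 4.3.3 (two-sided, Benjamini-Hochberg over 15815 genes). Figures used matplotlib 3.10.9 in Python 3.11.15. On simulated data for this comparison over 15815 genes, 14%, 68%, 100% and 100% of 50 genes each were called at changes of 0.5, 1, 2 and 3. The simulated noise was independent between genes and arrays, while the real arrays share deviations, so these shares may not hold for the data. Il33, for example, had a difference of 2.65 and was not called (limma adjusted p 0.334).

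Members and lists were chosen with earlier results of these data known. Patterns for ribosomal proteins and apolipoproteins were narrowed after unrelated genes had been caught, and the lymphatic, epidermal and milk lists were added after values were seen. Named by rule were Pygo2, called genes, the 15 largest non-overlapping differences in each direction, the leading 2 non-overlapping members of each family, list or extreme symbol root, the 2 brightest members of each other-cell list and the neighbours of Pygo2. Other genes were chosen after their values were seen, namely those named with a list's remaining members, the individual claudins, protocadherins and Wnt enhanceosome genes outside the rule. Predicted, olfactory and small RNA genes were counted only.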

Additional observations from a re-analysis of the deposited data

Results flagged for a closer look

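Among 100 named genes, 7 had 1 control basal array far from the other 3 by Dixon's ratio, and chance alone gives about 1 in 20 such groups. Brinp1 was high in control array 1, at 9.62. Fgb was high in control array 4, at 8.71, the control nearest to the SSKO arrays. Krt16 was high in the same array, at 11.09, as was Krt6b there. Plxnb3 was low in control array 2, at 6.83, and R3hdml was low in control array 3, at 6.59. Usp48 was high in control array 2, at 10.08, and Zfp189 was high in control array 1, at 8.51. All values are log2(intensity + 16), and the groups of 3 arrays were too small for this measure.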

How the results depend on the processing

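Limma called 6 genes. It called 3 after quantile normalization, 3 with the endothelial marker level as a covariate, and 0 without the 3 arrays brightest for those markers, control array 1 and SSKO arrays 1 and 3 (214 at an unadjusted p under 0.05). Leaving out 1 array gave 1 to 27 calls: 2 without control array 2, 27 without SSKO array 2 and 1 without SSKO array 3. The replicate numbers were not taken to pair the samples, since deviations correlated at 0.635, 0.464 and 0.0473 for numbers 1, 2 and 3, and SSKO array 3 correlated best with control array 4 (0.427). With the replicate number as a block limma made 11 calls, 8 higher and 3 lower. Pygo2 and Tspan1 lost their calls in that fit (limma adjusted p 0.126 and 0.0769). Non-overlapping genes numbered 706. There were 451 with the lower 50% of probe sets dropped, where fewer genes were tested, 5900 without the 3 arrays, and 1138 to 1758 without 1 array, since fewer arrays separate more easily. Those with a difference of at least 1 numbered 18, 59 without the 3 arrays and 14 to 100 without 1 array, with 37, 31 and 35 without control array 1, 2 or 4, 28 without SSKO array 1 and 100 without SSKO array 2. Settings that change only the model give no separate count of non-overlap. Acta2 turned from 0.07 to -0.0070 under quantile normalization, and the cause was not tested. Over named genes and settings, 1925 values stayed on the same side of the threshold and were counted as the same. Some small differences among them changed sign, such as that of Adar (-0.08 to 0.14 with 1 array left out). A call was lost in 33 values and gained in 13. Of family medians, 1169 moved by less than the spread between arrays and 30 by more.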

Other observations

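Probe sets that name several genes or no gene were counted apart from the tested genes. Of 4315 such sets kept after the filter on dim values, 346 were non-overlapping between SSKO and control basal arrays, 8.02%, against 4.46% of the named genes. No gene name is given for them, and the difference between these shares was not tested.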
